A study of Mus musculus with 6 samples.

Results

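The clustered protocadherins are a family of cell-surface adhesion genes that lie side by side in an alpha, a beta and a gamma cluster. They were followed here in RNA from sorted dental follicle cells of the mouse, the mesenchyme that surrounds a growing tooth. All genes whose symbol begins with Pcdha, Pcdhb or Pcdhg followed by an isoform name were taken. They numbered 59 of the 23107 genes in the larger deposited table, which holds estimated counts. Of these, 51 were also among the 17213 genes of the deposited whole-number count table, and 44 had enough counts to enter the comparison of the groups, out of 14632 genes. The family was chosen by its names, and it was selected on the measured counts of Pcdha12, an alpha member that differed between the groups. Every difference between the groups given below is therefore a description, and the share of all genes that meet the same criterion is printed beside each count with nothing read from it.

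The study held 6 libraries, 3 labelled Het with genotype Pth1r(+/-) and 3 labelled KO with genotype Pth1r(-/-), numbered 0, 1 and 2 in each group. Pth1r encodes the receptor for parathyroid hormone and parathyroid hormone-related protein (PTHrP), and its deletion was conditional. All libraries came from mandibular molars at postnatal day 8, from cells labelled PTHrP+ and sorted for the red reporter tdTomato, after tamoxifen given on day 3 according to the series text or day 8 according to the sample labels. Both groups thus carry the deletion in at least 1 copy and the tamoxifen treatment, and no label names the driver of recombination or says that libraries came from separate animals. The p-values then measure only the spread between these libraries, which may be partly technical.

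The whole-count totals lay between 34019925 and 66147200 per library. Pth1r itself was higher in the KO-labelled libraries. Its level, in counts scaled to a common library total (CPM), was 371, 286 and 346 in the Het-labelled libraries. In the KO-labelled libraries it was 961, 608 and 472. Its adjusted p in the edgeR fit described below was 0.740. Which part of the gene the deletion removes is not known here, and a count over the whole gene does not show it. The groups are therefore called by their labels throughout. Dental follicle genes were abundant in all 6 libraries, with 9 of 9 markers at 10 or more counts in each and a summed level of 14097 to 46439 CPM. Het replicate 2 stood apart: it separated from the other 5 on the first principal component, which held 38.6% of the variance, and had 14668 genes detected against 15175 to 16128. Results that rest on it are given with and without it.

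Clustered protocadherins are best known from the nervous system, where each neuron makes a small and largely random set of the alternate isoforms. Their ectodomains bind only to like isoforms on the neighbouring cell, which lets a neurite recognise its own branches. Each alternate isoform has its own promoter, and its choice depends on the DNA-looping factor CTCF and cohesin, while DNA methylation and the silencing protein SMCHD1 keep the others off. The C-type isoforms, at the end of the alpha and gamma clusters, are chosen less randomly. Alpha and gamma isoforms join a variable exon of their own to constant exons shared by the whole cluster, whereas beta genes have no constant exons.

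All members lie on chromosome 18 of the mm10 (GRCm38) build. By RefSeq positions the alpha cluster spans 36930285 to 37188897 and holds 14 members, the beta cluster spans 37264998 to 37521419 and holds 22, and the gamma cluster spans 37661775 to 37841873 and holds 22. The remaining member, Pcdha4-g, is a readthrough model that runs from the alpha into the gamma cluster. It had estimated counts of 3.41 and 43.9 in KO replicates 1 and 2 and was at 0 in the other libraries. The gamma cluster divides into 12 gamma-A, 7 gamma-B and 3 C-type isoforms, and the alpha cluster into 12 alternate and 2 C-type isoforms.

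Expression per length differed sharply between the clusters. The authors deposited FPKM values, in which fragments are divided by the length of the gene and the size of the library. These allow genes to be compared, with 1 limit. How fragments of exons shared by several members were divided among them is not known here, which bears on alpha and gamma levels set beside beta levels. The mean over the 6 libraries was at least 1 FPKM for 30 of the 59 members. These were 11 of 12 gamma-A, 5 of 7 gamma-B, 11 of 22 beta and 3 of 5 C-type isoforms, and 0 of 12 alternate alpha isoforms. In the estimated counts 7 members were at 0 in all 6 libraries, namely Pcdha3, Pcdha6, Pcdha7, Pcdha9, Pcdha11, Pcdhac1 and Pcdhb1. A count of 0 in a library still allows up to 3 counts, and since amplified reads are not independent molecules this limit covers counting error only.

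Pcdhgc3, a C-type gamma isoform whose cytoplasmic part is known to bind Axin1, had the highest level of the family. Its FPKM was 18.1, 22.1 and 3.57 in the Het-labelled libraries and 28.2, 22.1 and 22.7 in the KO-labelled ones, a mean of 19.5 ± 8.43 (SD, n = 6). It led the family in 5 of the 6 libraries. In Het replicate 2 the leading member was instead Pcdhgc4, the C-type isoform known to be needed for the survival of neurons, at 7.25 FPKM.

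Behind Pcdhgc3 came Pcdhb20 with a mean of 3.89 FPKM, Pcdhgb6 with 3.84, Pcdhb17 with 3.68, Pcdhb9 with 3.63 and Pcdhgc4 with 3.24. These 5 levels did not differ from each other beyond their spread. Pcdhb20, for example, ranged from 2.65 to 5.58 FPKM over the libraries, and Pcdhgb6 from 0.107 to 7.16. The leading gamma-A isoforms were Pcdhga7, Pcdhga2 and Pcdhga8, with means of 2.80, 2.51 and 2.34 FPKM. Pcdhac2, the C-type alpha isoform that serotonin neurons use to space their axons, had a mean of 1.62 FPKM. Pcdhgc5, the remaining gamma C-type isoform, had a mean of only 0.30 FPKM, so the C-type isoforms spanned the family from its top to genes at 0. Within the beta cluster the mean level tended to be higher toward the gamma side, with a Spearman correlation between position and mean FPKM of 0.55 over 22 genes. In the gamma cluster it was 0.01 over 22 genes. These genes share libraries and are not independent, so the correlations are descriptions only.

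**Figure D1:**
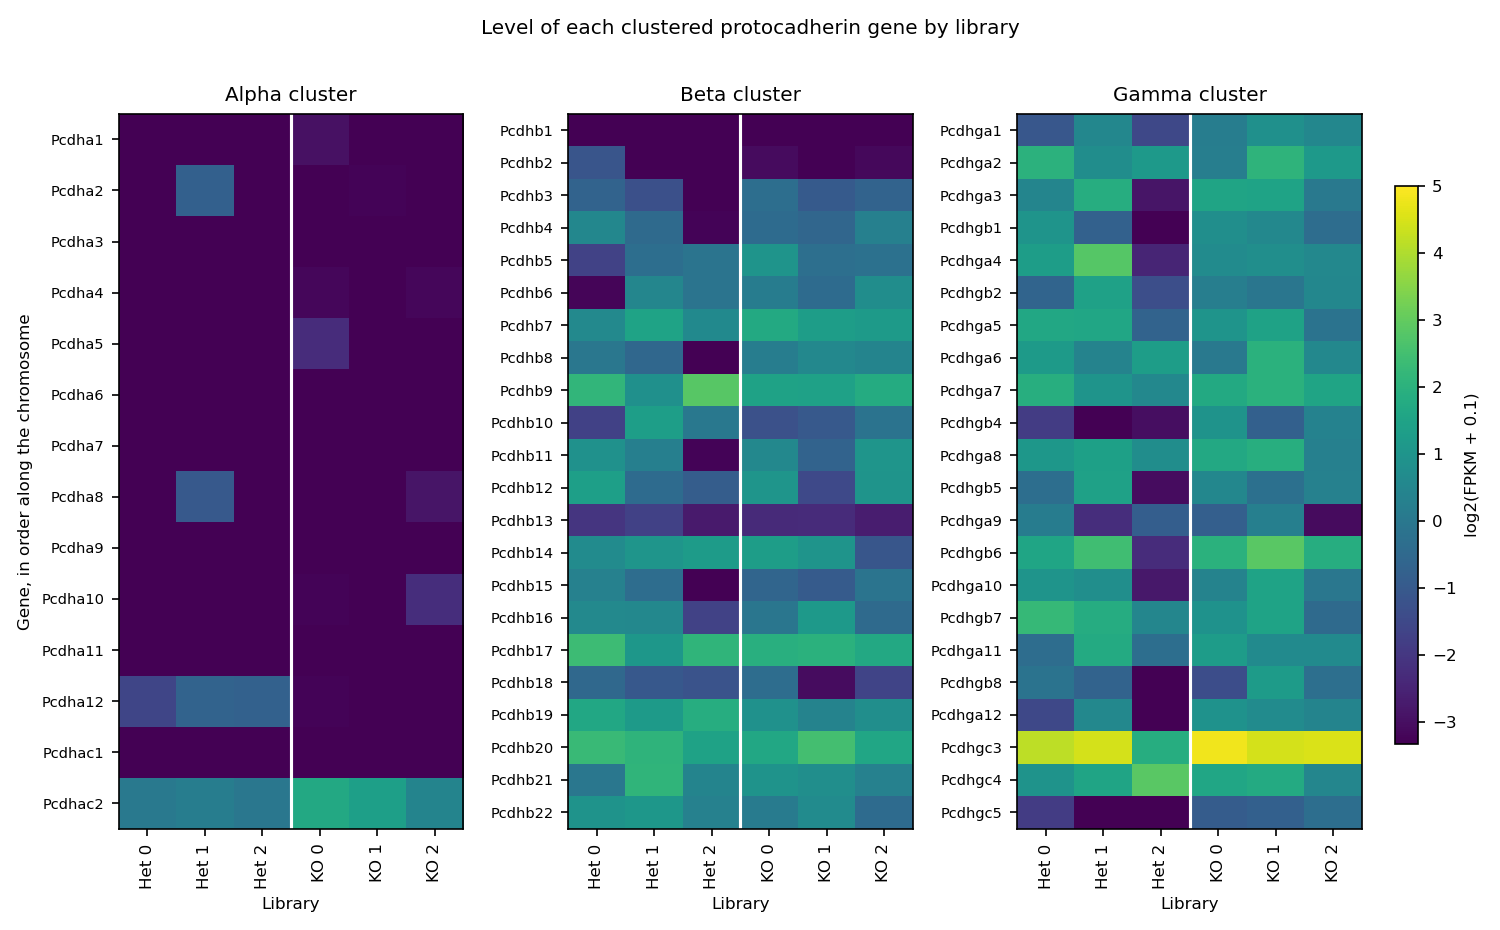
Level of each alpha, beta and gamma member (rows, in chromosome order) in each library (columns, Het left and KO right of the white line), as log2(FPKM + 0.1) in colour. The alternate alpha isoforms are almost empty apart from Pcdha12 in the Het-labelled libraries and Pcdha2 and Pcdha8 in Het replicate 1. Pcdhgc3 is the brightest row, and many beta and gamma rows are dark in Het replicate 2.

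Whole counts were lower than estimated counts in the clusters with shared constant exons. In the GENCODE M21 annotation, the alpha members shared 48.6% to 91.4% of their exonic bases with another gene (median 53.6%, 12 members with a match). The gamma members shared 31.5% to 66.8% (median 44.7%, 22 members), and 20 of the 22 beta members shared none. The tables differed along the same line. Summed over the libraries, whole counts were 61.9% of the estimated counts in the alpha cluster and 41.4% in the gamma cluster, but 100% in the beta cluster, where all 126 values of 21 genes were equal within 1e-04. All 30 alpha and gamma members held by both tables had whole counts under 90% of the estimated counts, as did 2.92% of all genes held by both. For the 22 gamma members the share lay between 38.1% and 46.6%.

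That share also moved between libraries. In the gamma cluster the Het-labelled libraries 0, 1 and 2 had 37.1%, 39.7% and 30.5%, while the KO-labelled libraries 0, 1 and 2 had 40.7%, 50.0% and 38.4%. In the alpha cluster it was 55.5%, 57.9% and 77.2% in the Het-labelled libraries and 62.9%, 59.8% and 61.8% in the KO-labelled ones. A gamma level from whole counts is thus lower than one from estimated counts by a factor that was not the same in each library. The strand setting of the counting is not given in the sources used here, and reads of a member and of any antisense or overlapping gene could not be separated.

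**Figure D2:**
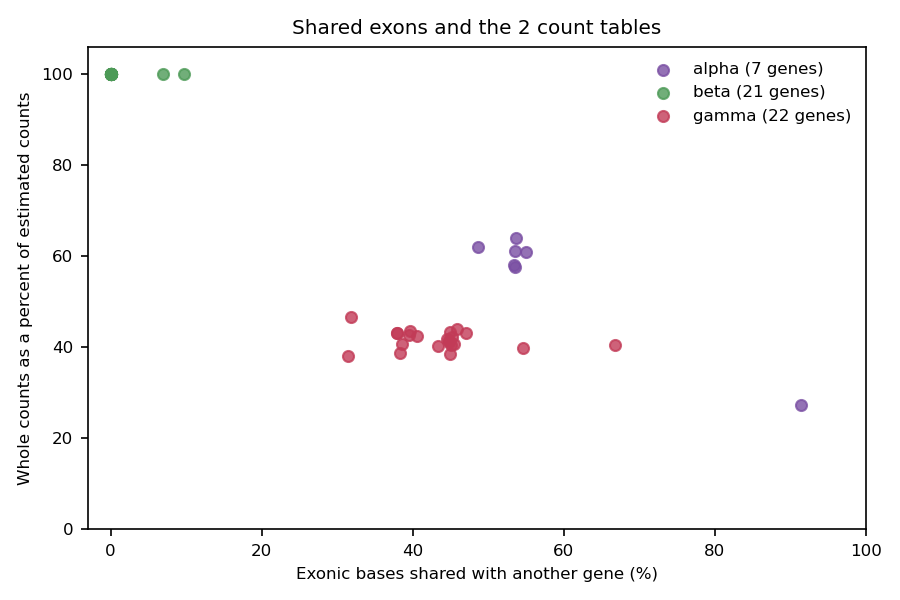
Each point is a member held by both tables and matched in the annotation, with the percent of its exonic bases shared with another gene on the horizontal axis and its whole counts as a percent of its estimated counts on the vertical axis. Beta genes sit at 100%, alpha genes at 27.2% to 64.0% and gamma genes at 38.1% to 46.6%.

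Among the alternate alpha isoforms, Pcdha12 was the only one with 10 or more counts in every library labelled Het. It had 41, 52 and 89 whole counts in the Het-labelled libraries, against 1, 0 and 0 in the KO-labelled libraries (replicates 0, 1 and 2 in each). All libraries labelled Het were above all libraries labelled KO. The Het level was 0.659, 1.45 and 2.50 CPM, and per length it was 0.237, 0.521 and 0.494 FPKM, low beside the beta and gamma genes. Because the family was chosen on this difference, it is given as a description, and a tool's call of Pcdha12 below supports nothing.

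The libraries labelled KO were not without alternate alpha transcripts. KO replicate 0 had 21 counts of Pcdha5, and KO replicate 2 had 25 counts of Pcdha10 and 8 of Pcdha8. In KO replicate 1 the alternate alpha isoforms together had 1 count. Het replicate 1 had 52 counts of Pcdha2 and 41 of Pcdha8 beside its Pcdha12. Each of these isoforms reached 10 counts in 1 library and in no other, so the alternate alpha isoform that was seen differed from library to library except for Pcdha12. Summed over the alternate alpha isoforms the level was 0.659, 4.04 and 2.50 CPM in the Het-labelled libraries and 0.492, 0.0164 and 0.647 CPM in the KO-labelled ones.

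Markers of other cell types that could be present in the sort were read beside this difference. The 5 genes of endothelium, the lining of vessels, summed to 8.91 to 15.1 CPM in the Het-labelled libraries and 5.25 to 8.02 CPM in the KO-labelled ones. Kdr and Pecam1 were lower in every KO-labelled library than in any Het-labelled one. The other 3 overlapped, among them Tek, at 0.659, 0 and 0 CPM against 0.181, 0.904 and 1.62 CPM. The 6 Schwann cell genes summed to 23.1 to 31.1 and 19.1 to 38.1 CPM, with the defining gene Sox10 at or near 0 in all 6 libraries. The macrophage and leukocyte genes summed to 2.54 to 10.8 and 4.99 to 26.5 CPM. Dental epithelium, which makes enamel proteins, was the most abundant of these, with 6 of 6 genes at 10 or more counts in every library and sums of 2935 to 5216 and 3173 to 7569 CPM. The part of these cells in the result was not tested. In bulk RNA, fewer cells of a type and less RNA per cell cannot be told apart.

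In the same cluster the C-type isoform Pcdhac2 was higher in the KO-labelled libraries. It had 177, 116 and 168 counts in the Het-labelled libraries and 672, 483 and 281 in the KO-labelled ones, and the groups did not overlap. Its level was 3.60 ± 0.989 CPM in the Het-labelled libraries and 8.10 ± 2.85 CPM in the KO-labelled ones (SD, n = 3 each). In edgeR's quasi-likelihood fit its log2 fold change was 1.17 (standard error 0.46). With Benjamini-Hochberg adjustment over all genes the adjusted p was 0.976 in edgeR, and over the alternatives run it lay between 0.567 and 0.9999. The alpha cluster as a sum, in which Pcdhac2 holds most counts, was 3.51, 7.27 and 7.22 CPM in the Het-labelled libraries and 11.5, 7.95 and 5.99 CPM in the KO-labelled ones, which overlap.

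Of the 44 members tested, 3 more had groups that did not overlap, all higher in the KO-labelled libraries. Pcdhgb4, a gamma-B isoform, had 17, 0 and 1 counts in the Het-labelled libraries and 191, 61 and 104 in the KO-labelled ones. Pcdhgc5, known in the brain for its contact with GABA receptors, had 21, 0 and 0 counts against 54, 74 and 69. Pcdhb8, a beta gene named after its values were seen, had 123, 45 and 0 counts against 147, 183 and 141, with the 0 in Het replicate 2. With counts this close to 0 a fitted fold change depends on the prior count, and no fold is printed in the text for Pcdhgb4 or Pcdhgc5. Of the neuron markers, Stmn2, a tubulin-binding protein of growing axons, was likewise higher in the KO-labelled libraries, at 11.8 to 16.2 CPM against 3.42 to 5.60 CPM. It was named after its values were seen. Snap25, a protein of synaptic release, was at 2.203, 1.14 and 0.478 CPM in the Het-labelled libraries and 0.164, 0.115 and 0.628 CPM in the KO-labelled ones, and Syt1, its calcium sensor, at 1.21, 3.34 and 0 against 0.0657, 0.361 and 0 CPM. The 8 neuron genes as a sum overlapped, at 10.7 to 92.9 CPM against 72.5 to 86.4 CPM, and their part in these results was not tested.

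In all, 5 of 44 members had groups that did not overlap, 4 higher and 1 lower in the KO-labelled libraries, where 10.7% of all genes tested did not overlap, 5.84% higher and 4.83% lower. An unadjusted edgeR p under 0.05 was reached by Pcdhgb4 and Pcdhac2, which were higher, against 2.58% of all genes. The 1 lower member was Pcdha12, on which the family was chosen, against 1.71% of all genes. It passed the filter on low counts only through the Het-labelled libraries. Pcdhgb4 and Pcdhgc5, in turn, passed that filter only through the KO-labelled libraries, where they were high. After adjustment over all genes, edgeR called 0 members and 0 of 14632 genes, a share of 0%. The unadjusted p was under 0.05 for 628 genes, which are the 2.58% higher and 1.71% lower given above. DESeq2, run as an alternative, called 87 genes or 0.509% of the 17084 genes to which it gave an adjusted p, and 1 of them was a member. That member was Pcdha12, whose values had already been used to choose the family.

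Among the abundant members no difference between the groups passed the test. Pcdhgc3 had 1911, 1394 and 154 counts in the Het-labelled libraries and 3235, 3037 and 1912 in the KO-labelled ones. In CPM its groups overlapped narrowly, since KO replicate 2 fell among the Het-labelled libraries. Its log2 fold change was 0.92 (standard error 0.62) with all libraries and 0.42 without Het replicate 2. Pcdhgc4 had 238, 220 and 447 counts against 407, 544 and 145. Its log2 fold change was -0.29 (standard error 0.58), and 0.31 without Het replicate 2. Pcdhb19 was the beta gene with the smallest unadjusted p among those lower in the KO-labelled libraries. It had 907, 356 and 912 counts against 500, 333 and 630, a log2 fold change of -0.97 (standard error 0.44), and -0.52 without Het replicate 2. Pcdhb20 had a log2 fold change of 0.00 (standard error 0.31).

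By subfamily, the fitted log2 fold change was above 0 for 18 of 22 gamma members tested, with a median of 0.62, and for 11 of 20 beta members, with a median of 0.02. Over the 44 members tested it was above 0 for 30, with a median of 0.36 and a middle range of -0.32 to 0.87. Of all 14632 genes, 49% were above 0 and the median was -0.01. In the estimated counts 15 of the 22 gamma members were above 0, with a median of 0.39. Without Het replicate 2 it was 16 of 22 gamma members with a median of 0.30, and 8 of 20 beta members with a median of -0.08. The median of all members tested was 0.10 without Het replicate 2 and 0.58 without Het replicate 1.

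**Figure D3:**
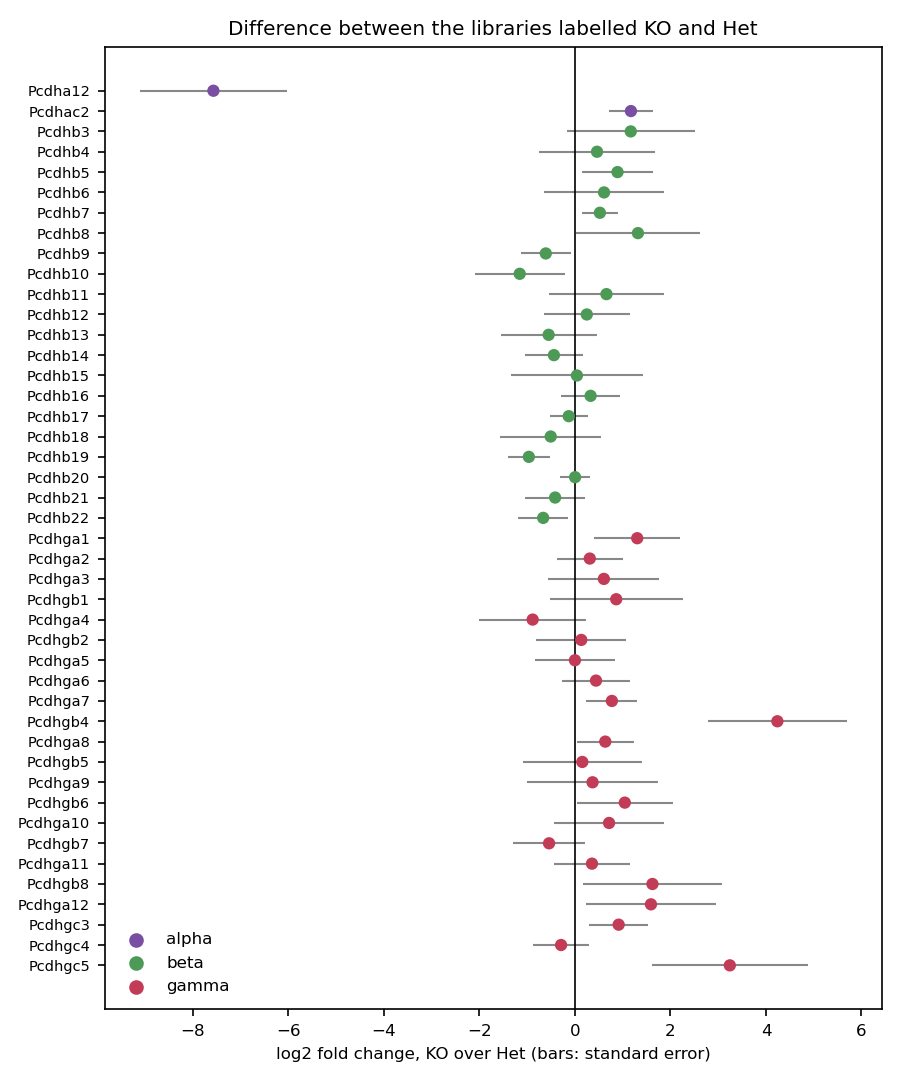
Fitted log2 fold change (points) and its standard error (bars) for the 44 members tested, libraries labelled KO over the Het-labelled ones, in chromosome order and coloured by cluster. Most bars cross or come near 0. A library at 0 counts occurred in 9 members. Among them Pcdha12, Pcdhgb4 and Pcdhgc5 were at or near 0 in most libraries of a group, and their fitted size depends on the prior count.

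The clusters as sums showed where the libraries differed. The beta cluster was even, at 118, 99.8 and 120 CPM in the Het-labelled libraries and 104, 93.2 and 114 CPM in the KO-labelled ones. The gamma cluster was not, at 94.1, 123 and 33.7 CPM in the Het-labelled libraries and 125, 168 and 86.0 CPM in the KO-labelled ones. The gamma sum of Het replicate 2 was the lowest, and the next lowest library was 2.56-fold higher. The log2 ratio of the group means was 0.59 for gamma with all libraries and 0.22 without Het replicate 2, and in the estimated counts it was 0.36 and 0.03. For beta it was -0.12 with all libraries and -0.07 without Het replicate 2.

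**Figure D4:**
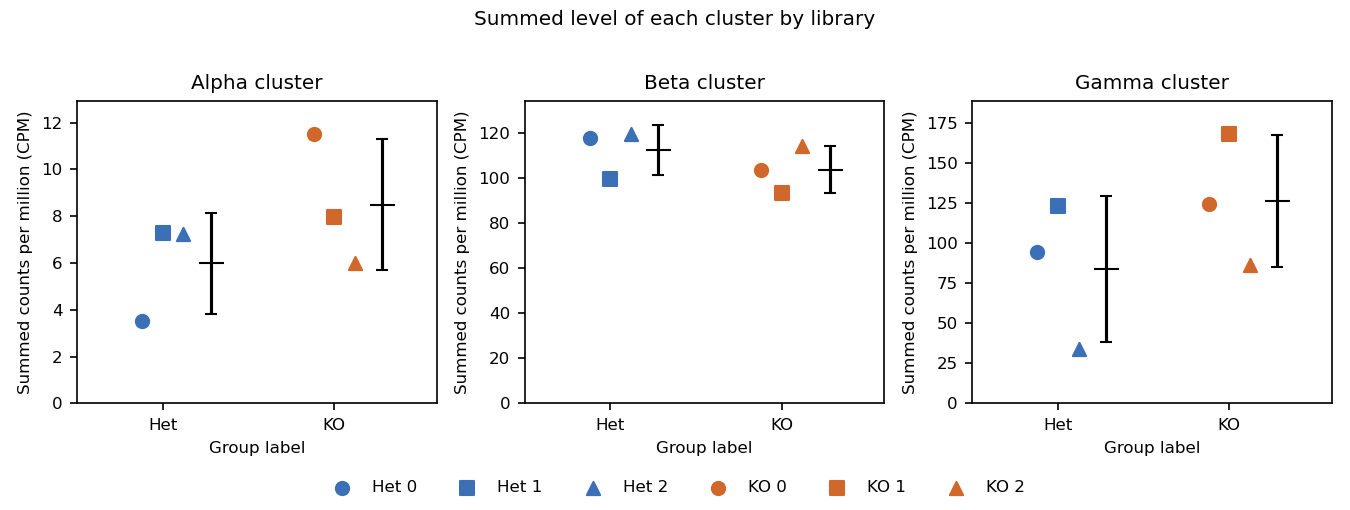
Summed level of the alpha, beta and gamma clusters in CPM of whole counts, each vertical axis starting at 0, with a symbol per library and the group mean with its SD in black. Beta sums lie between 93.2 and 120 CPM in all 6 libraries, and the gamma sum of Het replicate 2, at 33.7 CPM, lies below the other 5.

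In Het replicate 2 some isoforms were nearly absent while others were kept. A member was counted as low in a library when its CPM there was under 10% of the lowest of the other 5 libraries. In Het replicate 2 this held for 13 of 44 members tested, 8 gamma and 5 beta, and for 3.27% of all genes tested, which span all levels. The other libraries had at most 1 such member each, Pcdhb6 in Het replicate 0, Pcdhgb4 in Het replicate 1 and Pcdhb18 in KO replicate 1.

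The isoforms that were low lay among others that were not. Pcdhb8 had 0 counts in Het replicate 2 while its neighbour Pcdhb9 had 894, the highest count of the 6 libraries. Pcdhgb6 had 5 counts there against 297 to 965 elsewhere, and Pcdhgb8 and Pcdhga12 had 0, while Pcdhgc4 had 447. Pcdhb11 had 1 count there against 111 to 490 elsewhere. In all, 28 of the 51 members in the whole-count table had 10 or more counts in Het replicate 2, against 42 to 44 in the other libraries. The total was 35751012 counts in Het replicate 2 and 34019925 in Het replicate 1, which had 43 such members. The part of library depth in this difference was not tested.

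Other measures moved with this library. The follicle marker sum was 14097 CPM in Het replicate 2 and 26224 to 46439 CPM elsewhere, mostly through the collagen gene Col1a1, at 9738 against 21244 to 41011 CPM. Of the 9 follicle markers, Col1a1 and Wif1 were at their lowest there, while Postn, Aspn, Twist1, Msx1 and Pdgfra were at their highest. The neuron list summed to 10.7 CPM there and 57.3 to 92.9 CPM elsewhere, mostly through the tubulin gene Tubb3, at 5.70 against 49.4 to 79.3 CPM. Of the neuron list, Nefl and Elavl3 had 0 CPM in each Het-labelled library. In the KO-labelled libraries Nefl had 0.164, 0.0164 and 0.342 CPM, and Elavl3 had 0.131, 0.0164 and 0 CPM. Rbfox3 went the other way in Het replicate 0. It had 2.93, 0 and 0.0843 CPM in the Het-labelled libraries against 0.542, 0.197 and 0.704 CPM. Elavl4 had 1.67, 0 and 0 CPM against 1.25, 1.86 and 1.14 CPM. The part of these differences in the protocadherin pattern was not tested.

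Taken over both groups, members varied more between libraries of the same group than most genes of like level. The biological coefficient of variation, edgeR's estimate of the spread within groups beyond counting error, had a median of 74.6% over the 44 members tested. All genes tested were cut into 10 bins of mean level. Each member was set beside the median of its own bin. The median of these bin medians over the members, given below as the value of genes of like level, was 43.0%. Above the median of their own bin were 37 of 44 members. Past the 90th percentile of their bin were 6. Without Het replicate 2 the members' median was 55.6% against 36.8%, 32 of 44 were above the median of their bin and 2 were past its 90th percentile. The plain coefficient of variation (SD over mean), pooled over the groups, had a median of 69.7% against 42.5%, with 39 of 44 above the median of their bin. In the KO-labelled libraries alone the excess was smaller, at 41.7% against 31.8%, with 27 of 44 above. These are descriptions of genes that share a locus and libraries, and they have no test.

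By subfamily the median was 109% for the gamma-B isoforms, where genes of like level had 71.5%. It was 74.6% for gamma-A, 63.2% for the C-type and 59.8% for beta, where genes of like level had 43.0% for each. Without Het replicate 2 these medians were 61.2%, 61.7%, 39.6% and 39.8%. Genes of like level then had 56.4% for gamma-B and 36.8% for each of the others. The subfamilies differ in level, so their medians are not compared with each other. Pcdhgc3, the most abundant member, was at 70.0%, with a single low library, and at 19.5% without that library, Het replicate 2. Pcdhac2 was at 30.8%, and Pcdhb20, present at 440 or more counts in every library, was at 22.0%. By range, 23 of 44 members had a library at 0 or differed more than 10-fold between their highest and lowest library, as did 14.1% of all genes tested, which span all levels. Without Het replicate 2 this held for 7 of 44 members and for 10.2% of all genes.

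**Figure D5:**
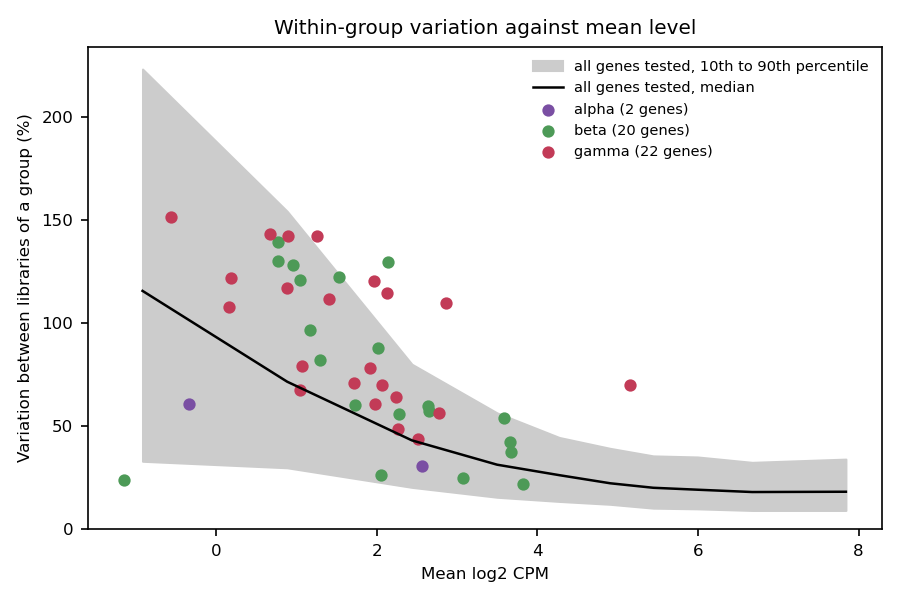
Biological coefficient of variation within groups (percent) against mean log2 CPM for the 44 members tested, with the median (line) and 10th to 90th percentile (grey) of all genes tested in 10 bins of mean level. Most members lie above the line, among them Pcdhgc3, the rightmost point, at 70.0% (19.5% without Het replicate 2).

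Genes that act on or with the clusters were read from lists of their known partners. Of 23 genes of cluster architecture and silencing, 21 were tested. After adjustment over all genes edgeR called 0 of them, as in each list below, and 0% of all genes. At an unadjusted edgeR p under 0.05 there were 0, where all genes had 2.58% higher and 1.71% lower. The log2 fold change of the 21 was above 0 for 12 and below 0 for 9, with a median of 0.04. Of all genes tested, 49% were above 0. Ctcf, the looping factor, was at 115 ± 6.98 CPM in the Het-labelled libraries and 119 ± 7.97 CPM in the KO-labelled ones (SD, n = 3 each). Smchd1, the silencing protein, was at 41.0 ± 12.7 and 38.8 ± 4.81 CPM. The cohesin subunit Stag2 was at 30.2 ± 6.63 and 45.5 ± 13.1 CPM, a log2 fold change of 0.59 (standard error 0.27), and the cohesin regulator Pds5a had a log2 fold change of 0.78 (standard error 0.37).

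All 22 genes of protocadherin signalling and processing were tested, with 0 called, 1 higher and 0 lower at an unadjusted p under 0.05, where all genes had 2.58% higher and 1.71% lower. The 1 gene was Cyfip2, a member of the WAVE complex that builds actin networks, at 20.0 ± 5.42 CPM in the Het-labelled libraries and 45.7 ± 18.9 CPM in the KO-labelled ones. Its log2 fold change was 1.19 (standard error 0.34), and its adjusted p in edgeR was 0.855. Psen2, a subunit of the gamma-secretase that cleaves protocadherins, was at 30.1 ± 4.11 and 22.8 ± 3.01 CPM, with a log2 fold change of -0.40.

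Protocadherins outside the clusters have no isoform choice of this kind. Of 11 tested, 0 were called and 1 was higher at an unadjusted p under 0.05, against 2.58% of all genes. This was Pcdh1, with 0, 1 and 1 counts in the Het-labelled libraries and 27, 68 and 61 in the KO-labelled ones. It passed the filter on low counts only through the KO-labelled libraries. Pcdh18 was at 101 ± 2.06 and 141 ± 36.0 CPM. Of 16 classical and other cadherins, 0 were called, 2 were higher and 1 was lower at an unadjusted p under 0.05, against 2.58% and 1.71% of all genes. The list was not limited to mesenchyme, since it holds Cdh1 and Cdh5, used above among the genes of dental epithelium and endothelium. Cdh2, the N-cadherin of mesenchymal junctions, was at 73.1 ± 39.7 and 141 ± 23.9 CPM, a log2 fold change of 0.95 (standard error 0.35), and an adjusted p in edgeR of 0.976. The giant cadherin Fat3 was at 4.35 ± 3.35 and 12.4 ± 5.44 CPM, and Fat2, the lower one, was at 28.1 ± 12.2 and 12.6 ± 6.99 CPM.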

How the data were processed

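RNA of 3 Het and 3 KO libraries was measured by sequencing of amplified cDNA (SMART-Seq v4, Nextera XT, HiSeq4000, per the labels' protocols). The mm10 genome and the tools Bowtie2 2.2.1, TopHat2 2.0.13, HTSeq, Cuffdiff, Cufflinks, DESeq2 and FastQC are listed, without roles, in the submitters' processing notes. Annotation and strand setting: not given in the sources used here. Whole counts per gene, which the authors deposited without normalization, carried the tests. They also deposited estimated counts, of which 1.66% of values were not whole and which were rounded before use, and FPKM values scaled by gene length and library size. Deposited scaled and log-transformed tables were not used here.

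Sample titles gave each library its group and replicate number. Counts were fitted with edgeR 4.0.16 (R 4.3.3), with filterByExpr, TMM scaling and the quasi-likelihood test, and p-values were adjusted by Benjamini-Hochberg over all genes tested. CPM uses the TMM-scaled totals. Genes were called at an adjusted p under 0.05. The fit was tested on simulated data. Alternatives were DESeq2 1.42.0, limma 3.58.1 on log2(FPKM + 1) or log2(FPKM + 0.1) of the deposited values, other scalings and filters, the estimated counts, a replicate block and leaving out each library. The lowest chi-square per degree of freedom between any pair of libraries was 86.2, beyond counting error, and no pair was counted as 1 sample. This measure cannot tell separate animals from separate preparations of the same RNA.

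Positions came from RefSeq (GRCm38.p6), which matched 58 members by symbol and 1 by synonym, and exons from GENCODE M21, which matched 56. Members and gene lists were chosen with earlier results of these data known. The text names Pth1r, Pcdha12, the 5 C-type isoforms, the 3 members of each subfamily with the highest mean FPKM, the 5 members per direction with the smallest unadjusted p, and up to 2 genes per related list; others were named after their values were seen.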

Additional observations from a re-analysis of the deposited data

How the results depend on the processing

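Of 411 values of the named genes under the alternatives, 389 kept their direction and their side of the threshold, 21 changed direction and 1, Pcdha12 in DESeq2 (the gene for which the family was chosen), passed the threshold. DESeq2 called 87 genes and 1 member, where edgeR called 0 of each. With limma, 1 gene and 0 members were called on log2(FPKM + 1), on log2(FPKM + 0.1) and with a minimum of 1 FPKM. Leaving out each library gave 0 to 1 genes, and 7 to 16 members without overlap, where 16.9% to 24.1% of all genes did not overlap. The 16 came without Het replicate 1, where the share of all genes was 22.6%. Fewer libraries overlap less often by construction. The median log2 fold change of the members tested lay between 0.10 and 0.58 in these fits and was 0.08 on log2(FPKM + 1), 0.15 with the FPKM minimum and 0.22 in the estimated counts. The alpha ratio lay between 0.22 (without Het replicate 0; 0.23 without KO replicate 0) and 0.70, the beta ratio between -0.20 and -0.04, and the gamma ratio between 0.22 (without Het replicate 2; 0.33 without KO replicate 1) and 0.98 (without Het replicate 1).

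Direction changed for 6 members, none of them called, and the cause was not tested. In the estimated counts the log2 fold change was -0.0694 for Pcdhga2 and -0.0328 for Pcdhgb2. On log2(FPKM + 1), with and without the minimum, it was -0.0913 for Pcdhga2 and -0.0242 for Pcdhb20. On log2(FPKM + 0.1) it was -0.16 for Pcdhga2, -0.0314 for Pcdhb20 and 0.0151 for Pcdhb17. With each library left out it ranged from -0.47 to 0.13 for Pcdhb17, -0.36 to 1.68 for Pcdhgb2, -0.21 to 0.21 for Pcdhb20, -0.66 to 0.31 for Pcdhgc4, -1.01 to 0.0541 for Pcdhb9 and -0.56 to 0.88 for Pcdhga2.

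Het and KO samples with the same replicate number correlated in their deviations at 0.17, 0.07 and 0.07. These values do not settle whether the samples were paired. Each correlated best with its own number, which is a hint from the data and not from the design. With the replicate block, 0 genes and 0 members were called, the median of the members was 0.62 and Pcdhb20 was at -0.0218.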
